A study of Mus musculus with 6 samples.

Results

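Bnc2, Egfl6, Gpha2 and Crispld1 were followed in sorted calvarial osteocytes of mice with and without estrogen receptor alpha (ERα, encoded by Esr1) in these cells. The 4 genes were taken as a set because their signal was higher in the knockout arrays, and all probe sets of the platform annotation that name 1 of them alone were used. This gave 7 probe sets, 3 of Bnc2, 2 of Crispld1 and 1 each of Egfl6 and Gpha2, out of 34945 probe sets with a single gene and 18193 genes. Because the values of this contrast chose the genes, their differences are given as a description, with no test.

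The knockout group, labelled ERaKO, was the osteocyte-specific ERα knockout, named ERαΔOcy/ΔOcy in the extraction protocol, and the control group was labelled WT littermate and named ERαflox/flox there. Each group had 3 Affymetrix arrays of total RNA, labelled biological replicates, and all mice of both groups were C57/BL6 females of 10 to 12 days that carried Dmp1-GFP, green fluorescent protein under the promoter of an osteocyte matrix gene. Fractions 4 to 6 of 6 digestions of suture-free calvariae were sorted for green cells, in a gate set to hold 10% to 15% of cells where mice were marked, and between 0.8% and 1.0% where they were not. The promoter that drove Cre, the deleted piece of Esr1 and whether controls carried Cre are not stated in the labels, so ERα loss and an effect of Cre cannot be told apart. The protocol speaks of pooled calvarial tissue and the design text of RNA that was not pooled. If arrays shared tissue, the errors given here measure the spread between arrays and not between mice.

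Bnc2 encodes basonuclin 2, a nuclear zinc finger protein of mesenchymal cells, and mice that lack it have craniofacial defects. Egfl6 encodes a secreted protein with EGF-like repeats and a MAM domain that binds integrins and lies in the matrix around developing tissues. Gpha2 encodes the alpha subunit of thyrostimulin, a glycoprotein hormone that pairs with the product of Gphb5 and acts on the thyrotropin receptor. Crispld1 encodes a secreted protein with a CAP domain and LCCL domains. ERα is a nuclear receptor that binds estrogen response elements and can also act through AP-1 and Sp1 at other promoters.

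The 4 genes lie on 4 chromosomes of the GRCm38.p6 assembly, so they are not neighbours. Bnc2 spans chr4:84266804-84676029, Egfl6 chrX:166523007-166585716, Gpha2 chr19:6226401-6227768 and Crispld1 chr1:17727029-17767235 in the RefSeq gene table. The 250 bases upstream of the annotated start are shown for Egfl6 and Gpha2, because both genes were higher in ERaKO arrays and ERα is known to act through motifs that can be looked for there. The sequences are from RefSeq, on the strand of each gene, 5′ to 3′, and capitals mark the Sp1 motif.
Egfl6, chrX:166585717-166585966, minus strand: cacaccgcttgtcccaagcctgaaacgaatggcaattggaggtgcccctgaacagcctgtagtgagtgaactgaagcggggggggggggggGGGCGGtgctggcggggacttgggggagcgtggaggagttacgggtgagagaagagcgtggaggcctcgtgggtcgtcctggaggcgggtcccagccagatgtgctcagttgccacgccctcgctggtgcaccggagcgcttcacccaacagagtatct
Gpha2, chr19:6226151-6226400, plus strand: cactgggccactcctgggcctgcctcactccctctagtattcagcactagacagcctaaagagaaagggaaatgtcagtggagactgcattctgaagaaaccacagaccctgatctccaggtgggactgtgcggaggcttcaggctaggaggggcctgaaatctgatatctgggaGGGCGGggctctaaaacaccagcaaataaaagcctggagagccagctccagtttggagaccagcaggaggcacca
Each window held 1 match to the Sp1 motif GGGCGG, and none to the estrogen response element palindrome GGTCANNNTGACC, its half-site GGTCA, the AP-1 motif TGANTCA or the TATA box TATAAA, with both strands read and the half-site also lying inside the palindrome. Of 32851 windows of the same length, 32.7% held the Sp1 motif, 35.2% the half-site, 6.75% the AP-1 motif, 12.4% the TATA box and 0.0639% the palindrome. The start listed for Bnc2 lies 65832 bases inside the gene, so its window is not shown, and Crispld1 is named only.

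Signals of all 4 genes were higher in the ERaKO arrays, by 3.07-fold for Gpha2, 2.32-fold for Bnc2, 2.06-fold for Egfl6 and 1.73-fold for Crispld1 by the brightest probe set. In 6 of the 7 probe sets every ERaKO value lay above every control value, against 7.57% of all 45037 probe sets, and the dimmest probe set of Bnc2 was the exception. Since the genes were picked for this difference, nothing is read from that count. Levels below are log2(signal + 16) after quantile normalisation of the arrays, where 4 stands for a signal of 0, and a fold change on this scale understates that of a dim probe set. In RNA of sorted cells, more cells that express a gene and more of its RNA per cell cannot be told apart.

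**Figure D1:**
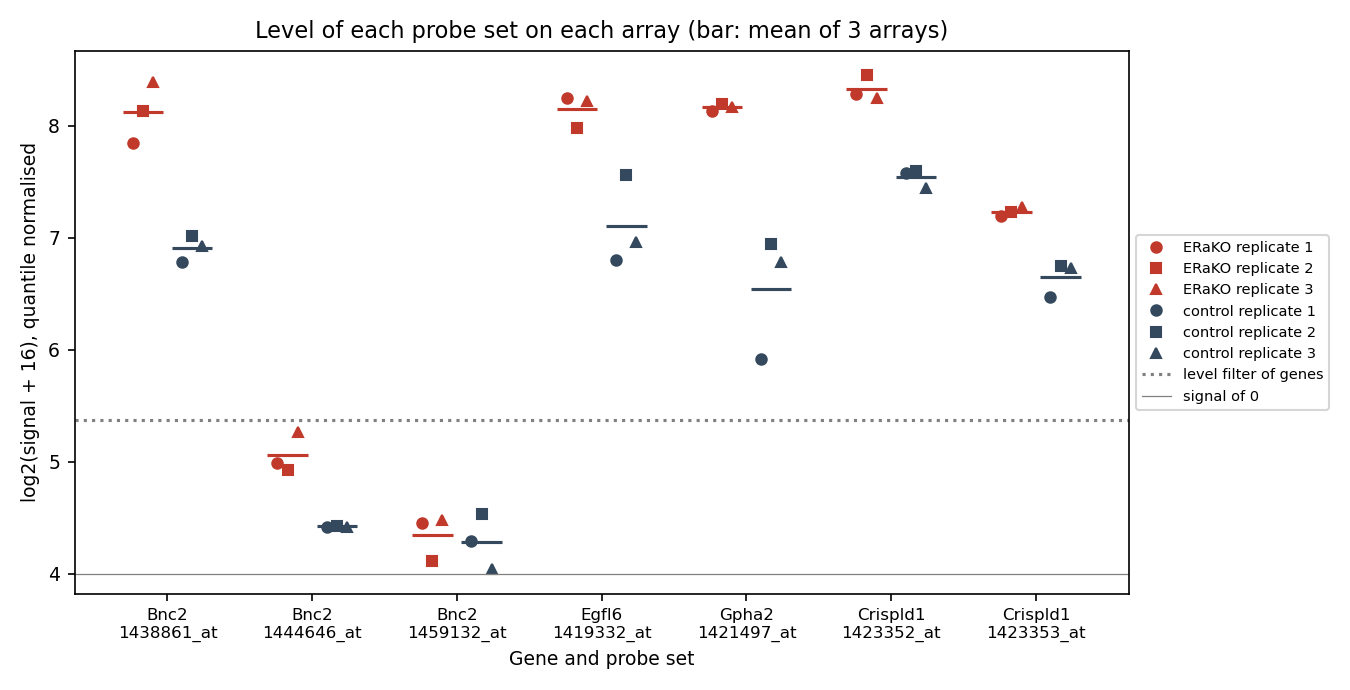
Level of the 7 probe sets, as log2(signal + 16) after quantile normalisation (vertical axis), on the 3 ERaKO arrays (red) and the 3 control arrays (blue), with a bar at each group's mean. The groups do not overlap in 6 probe sets, and 2 probe sets of Bnc2 lie below the dotted line, the level of 5.37 that genes had to pass to be tested.

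Bnc2 was read by a bright and by 2 dim probe sets, which did not behave alike. The bright one, 1438861_at, had deposited signals of 209.7, 249.6 and 402.2 in ERaKO replicates 1, 2 and 3, against 99.4, 103.7 and 91.7 in control replicates 1, 2 and 3. The lowest ERaKO signal was 2.02-fold the highest control signal, and control arrays stood close together while ERaKO arrays spread. On the log2 scale it averaged 8.12 ± 0.27 in ERaKO and 6.90 ± 0.12 in control arrays (SD, n = 3 each), a difference of 1.22 ± 0.15 (SE). ERaKO replicate 3 had the highest signal, and without it the difference was 1.08.

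The second probe set of Bnc2, 1444646_at, was near the lower end of the scale. Its signals were 15.2, 13.3 and 29.4 in ERaKO arrays, against 5.7, 5.1 and 4.4 in control arrays. The groups were again apart, and ERaKO replicate 3 was again the highest. Its log2 difference of 0.64 ± 0.15 (SE) is held down by the added 16, and was 1.51 ± 0.41 (SE) with 1 added instead. The deposited signals averaged 19.3 in ERaKO and 5.07 in control arrays. The dimmest, 1459132_at, had signals of 5.7, 1.2 and 8.2 in ERaKO arrays and of 3.8, 6.6 and 0.4 in control arrays, which overlapped, with a difference of 0.06 ± 0.16 (SE). Both dim probe sets were below the level filter, and detection calls were not used here, so whether the dimmest measured Bnc2 RNA at all is not known from these values.

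Egfl6 was read by a single probe set, 1419332_at, with deposited signals of 280.4, 223.1 and 356.1 in ERaKO arrays and of 100.6, 160.0 and 94.4 in control arrays. The groups were apart, with the lowest ERaKO signal 1.39-fold the highest control signal, the narrowest gap among the brightest probe sets of the 4 genes. Control replicate 2 stood above the other controls. Levels averaged 8.15 ± 0.15 in ERaKO and 7.11 ± 0.40 in control arrays (SD, n = 3 each), a difference of 1.04 ± 0.20 (SE). It was 1.27 ± 0.13 without control replicate 2 and 0.89 ± 0.19 without control replicate 1 (SE).

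Gpha2 had the widest difference of the 4, at rank 9 from the top among 10916 tested genes. Its probe set, 1421497_at, had signals of 257.9, 262.1 and 341.6 in ERaKO arrays and of 46.7, 98.5 and 81.9 in control arrays. ERaKO arrays were alike, at a log2 level of 8.16 ± 0.04, while control arrays averaged 6.54 ± 0.55 (SD, n = 3 each), with control replicate 1 far below the other controls. The difference was 1.62 ± 0.24 (SE), and 1.30 ± 0.11 (SE) without control replicate 1. The hormone's partner Gphb5 was not read by any single-gene probe set, so whether both subunits moved was not analysed here.

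Crispld1 was read by 2 probe sets that went the same way by similar amounts. The brighter, 1423352_at, had signals of 286.4, 316.2 and 361.6 in ERaKO arrays and of 183.3, 164.1 and 137.1 in control arrays. The dimmer, 1423353_at, had 127.7, 126.6 and 176.4 in ERaKO arrays and 77.2, 83.3 and 78.2 in control arrays. In both the groups were apart, and in both the lowest deposited ERaKO signal was at least 1.52-fold the highest deposited control signal. On the normalised scale this gap was 1.57-fold for the brighter and 1.36-fold for the dimmer. The brighter averaged 8.32 ± 0.11 in ERaKO and 7.54 ± 0.08 in control arrays, and the dimmer 7.23 ± 0.04 in ERaKO and 6.65 ± 0.15 in control arrays (SD, n = 3 each). The differences were 0.79 ± 0.11 and 0.58 ± 0.13 (SE), 1.73-fold and 1.50-fold, at rank 58 among tested genes for the brighter.

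The order of the differences was Gpha2, Bnc2, Egfl6 and Crispld1, and neighbours in that order were 0.40, 0.17 and 0.26 apart, beside standard errors between 0.11 and 0.24. Bnc2 and Egfl6, at ranks 18 and 23 among tested genes, were apart by less than the standard error of Egfl6 (0.20) and by little more than that of Bnc2 (0.15). The order of the arrays within a group was not the same for all 4 genes. For Gpha2 the ERaKO arrays spanned only 0.07, so their order says little. Within ERaKO, Bnc2 was highest in replicate 3, Egfl6 in replicate 1, and Gpha2 and Crispld1 in replicate 2 after normalisation, whereas in the deposited signals replicate 3, whose array median of 28.6 was the highest of all, led for all 4. Within controls, replicate 2 was highest for Bnc2, Egfl6 and Gpha2 in both the deposited and the normalised values. For Crispld1 replicate 1 had the highest deposited signal, and after normalisation replicates 1 and 2 were at 7.58 and 7.59.

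**Figure D2:**
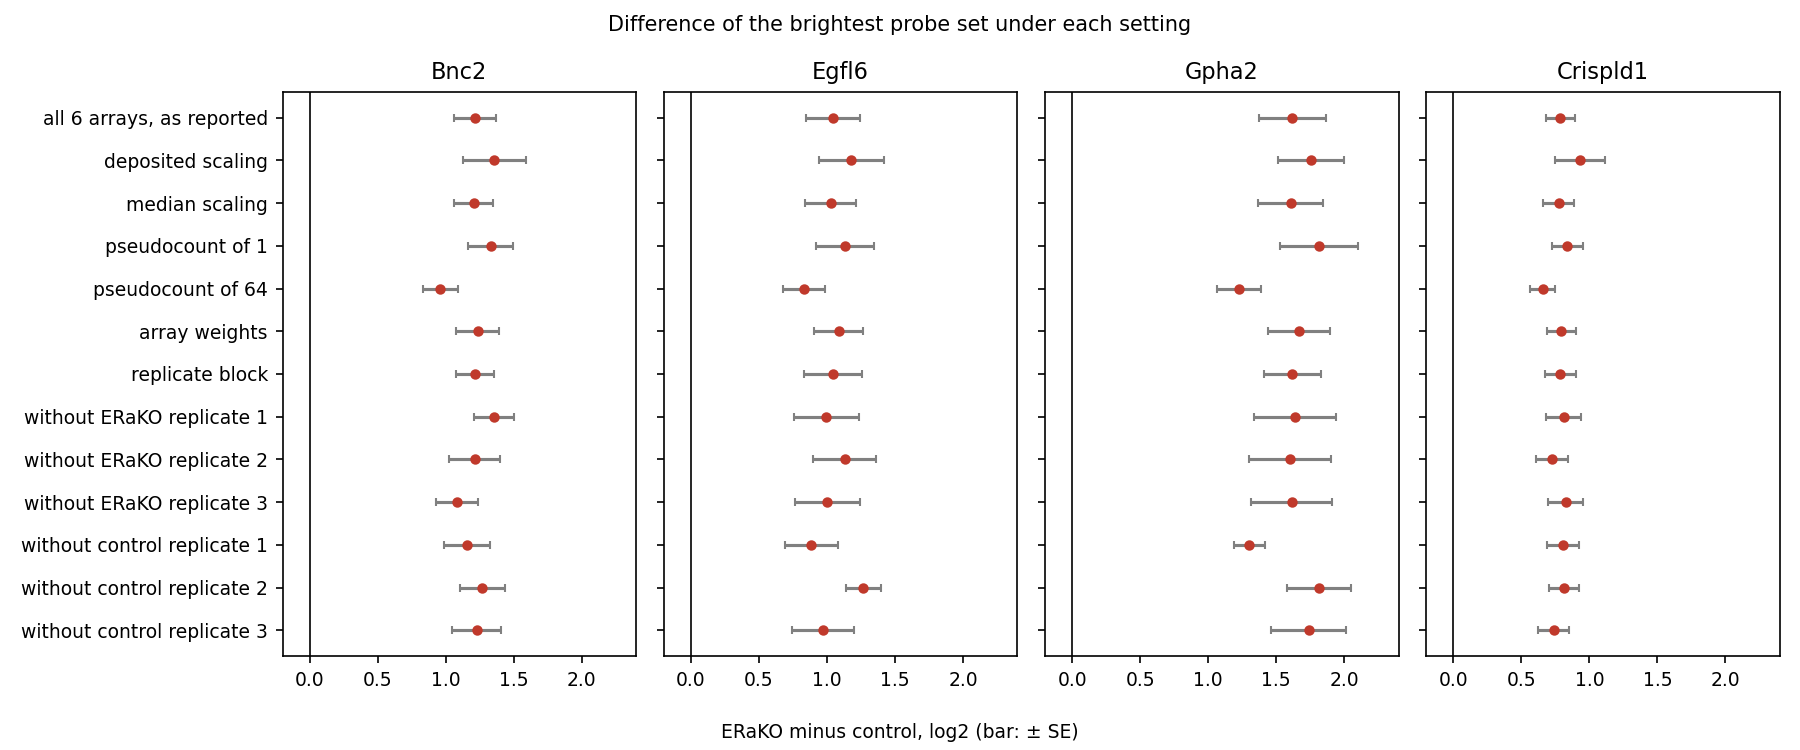
Difference between ERaKO and control arrays in the brightest probe set of each gene (horizontal axis, log2, with SE bars) for all 6 arrays and for 12 other settings (rows). Among the settings shown Gpha2 moves most, down to 1.30 without control replicate 1 and 1.23 with a pseudocount of 64. The mean of all probe sets of a gene is not shown, and gave 0.64 for Bnc2.

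Over the 6 settings that left out 1 array, differences ran from 1.08 to 1.36 for Bnc2, 0.89 to 1.27 for Egfl6, 1.30 to 1.82 for Gpha2 and 0.73 to 0.83 for Crispld1. With the deposited scaling the median of all genes was 0.14, and relative to it the differences were 1.22, 1.05, 1.62 and 0.79 in the same order.

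Across all genes, limma called 0 higher and 0 lower of 10916 at an adjusted p under 0.05 (0% in each direction), with 1151 at an unadjusted p under 0.05. This bears on the relatives of the 4 genes, which were listed by family, domain or developmental role. Of 68 relatives 61 had a probe set of a single gene and 34 passed the level filter. Of these 34, 0 were called in either direction, 8 had an unadjusted p under 0.05, and the median log2 difference was 0.09 against -0.01 over all tested genes. In 4 relatives all ERaKO values lay above all control values, where 9.23% of tested genes did, and in 2 all lay below, where 7.76% did.

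Bnc1, the other basonuclin gene, did not separate the groups. Its level was 4.38, 4.50 and 4.35 in ERaKO arrays and 4.40, 4.43 and 4.70 in control arrays, close to a signal of 0 and below the filter. The 6 measured glycoprotein hormone and receptor genes, Cga, Tshb, Fshb, Lhb, Tshr and Fshr, were below the filter too. For Tshr, the thyrotropin receptor on which thyrostimulin acts, levels were 5.00, 4.43 and 4.50 in ERaKO arrays and 4.82, 4.65 and 4.06 in control arrays, which overlapped. Among the measured glycoprotein hormone and receptor genes, Gpha2 was the 1 with a level above the filter.

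Npnt encodes nephronectin, a matrix protein with EGF-like repeats and a MAM domain like those of the Egfl6 product. Its level was 10.61, 10.29 and 10.59 in ERaKO arrays and 9.40, 10.29 and 9.41 in control arrays. Control replicate 2 reached the level of the ERaKO arrays, as it came closest to them for Egfl6. Npnt differed by 0.80 ± 0.24 (SE, limma adjusted p = 0.367), while without control replicate 2 it was 1.10 ± 0.12 (SE, limma adjusted p = 0.00880). Itga8, the alpha chain of the integrin that binds nephronectin, differed by -0.45 ± 0.20 (SE, limma adjusted p = 0.477), and by -0.68 ± 0.11 without control replicate 2 (SE, limma adjusted p = 0.0286). In both genes control replicate 2 was the control at the ERaKO level, so leaving it out widens the difference by construction. Scube2, a secreted EGF-repeat protein that helps release Hedgehog, differed by 0.30 ± 0.13 (SE, limma adjusted p = 0.472). Of the 11 tested genes of this list 6 lay above 0 and 5 below, with a median of 0.00, and 8 lay above 0 with the deposited scaling, where the median of all genes was 0.14.

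The closest relative of Crispld1, Crispld2, differed by 0.09 ± 0.22 (SE, limma adjusted p = 0.910), with 11.00, 10.96 and 11.04 in ERaKO arrays and 10.48, 10.78 and 11.46 in control arrays. The ERaKO levels lay inside the range of the controls. Of the CAP and LCCL domain list, from which Crispld1 was left out, 6 of 8 tested genes lay below 0 and 0 were called. The list's median was -0.26, and it was -0.16 without control replicate 3. With the deposited scaling it lay -0.25 from the median of all genes, as it did after quantile normalisation. Pi15, a secreted CAP protein, differed by -0.88 ± 0.24 and Glipr2, a CAP protein of the Golgi, by -0.63 ± 0.18 (SE, limma adjusted p = 0.319 and 0.329), and in both all ERaKO values lay below all control values. Dcbld2, a transmembrane LCCL protein, differed by -0.24 ± 0.11 (SE, limma adjusted p = 0.491).

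Transcription factors of craniofacial mesenchyme, listed because of the craniofacial role of Bnc2, numbered 15 after the level filter, of which 13 lay above 0 and 2 below, the median being 0.20, and 0 were called. Without control replicate 2 the median was 0.31, and without control replicate 3 it was 0.15 with 11 of 15 above 0. Prrx2, a homeobox factor of craniofacial and limb mesenchyme, had 8.23, 8.44 and 8.44 in ERaKO arrays and 7.57, 7.80 and 7.67 in control arrays. These groups were apart, with a difference of 0.69 ± 0.11 (SE, limma adjusted p = 0.183). Zic1, a zinc finger factor of the meninges and calvaria, differed by 0.41 ± 0.10 and Alx1, a homeobox factor of frontonasal mesenchyme, by 0.56 ± 0.20 (SE, limma adjusted p = 0.288 and 0.416), also with groups apart. Without control replicate 2, 3 relatives were called higher, Npnt, Prrx2 and Zic1, and 4 lower, Itga8, Glipr2, Meox2 and Pi16, where 0.788% of all tested genes were called higher and 1.94% lower. Meox2 and Pi16 were named after their values were seen. With all 6 arrays they differed by -0.54 ± 0.38 and -0.52 ± 0.82 (SE, limma adjusted p = 0.647 and 0.857), and the groups overlapped. In both, control replicate 2 lay below all ERaKO arrays, so leaving it out widens the difference by construction. For Prrx2, Zic1 and Glipr2 it was the control nearest to the ERaKO arrays.

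**Figure D3:**
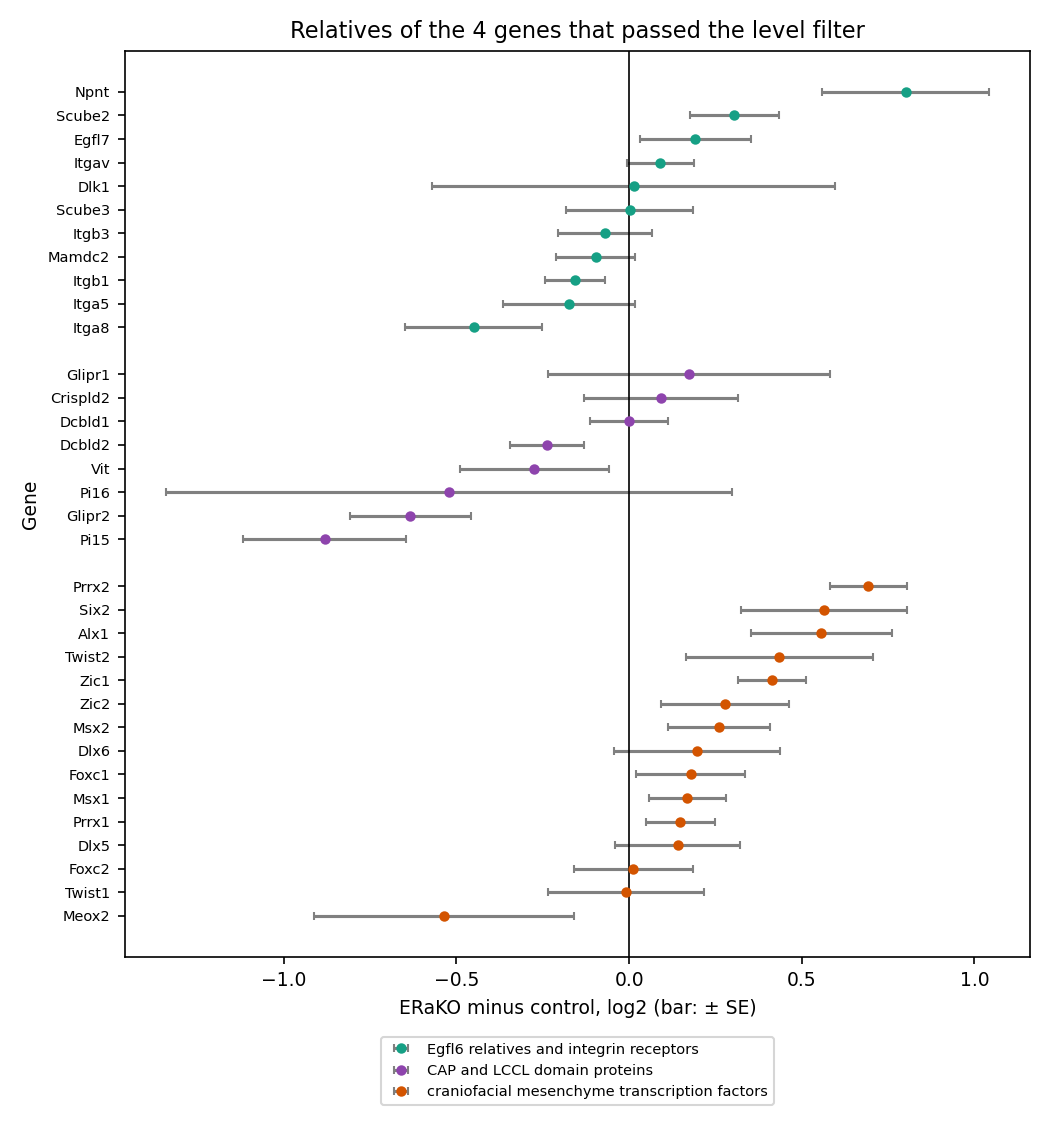
Difference between ERaKO and control arrays (horizontal axis, log2, with SE bars) for the 34 relatives that passed the level filter, grouped by list. Npnt and Prrx2 lie at 0.80 and 0.69, Pi15 at -0.88, and 13 of the 15 craniofacial transcription factors lie above 0.

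The genes whose values lay nearest to those of each member were found from the root mean square difference over the 6 arrays, after each gene was centred, among the tested genes. Since the members differ strongly between the groups, this measure picks genes that do so as well, and it was read as a description. For Egfl6 they were Col8a2, a short-chain collagen, Tenm3, a transmembrane adhesion protein, and S100b, a calcium-binding protein, at 0.12, 0.12 and 0.13. In all 3, as in Egfl6, control replicate 2 stood above the other controls. Crispld1 had the closest match, Zfp185, an actin-associated LIM protein, at 0.05, followed by Wnt9a, a Wnt ligand, and Gpd2, a mitochondrial glycerol phosphate dehydrogenase, at 0.10 and 0.11. Bnc2 was followed less closely, by Epha7, an ephrin receptor, the fibril-associated collagen Col12a1 and the secreted peptide gene Ecrg4, at 0.18, 0.24 and 0.25. Gpha2 was nearest to Epyc, a small proteoglycan of cartilage, Shisa3, a modulator of Wnt and FGF signalling, and Ltbp2, a microfibril protein, at 0.24, 0.28 and 0.32, and control replicate 1 was lowest in all 3. Among members, Egfl6 was at rank 7 of 10915 genes from Bnc2 at 0.27, while Bnc2 was at rank 41 from Egfl6. Seen from Crispld1, the genes Bnc2, Egfl6 and Gpha2 were at ranks 664, 691 and 9060. The pair farthest apart, Gpha2 and Crispld1 at 0.54, had root mean square deviations of 0.87 and 0.40 from their own means.

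**Figure D4:**
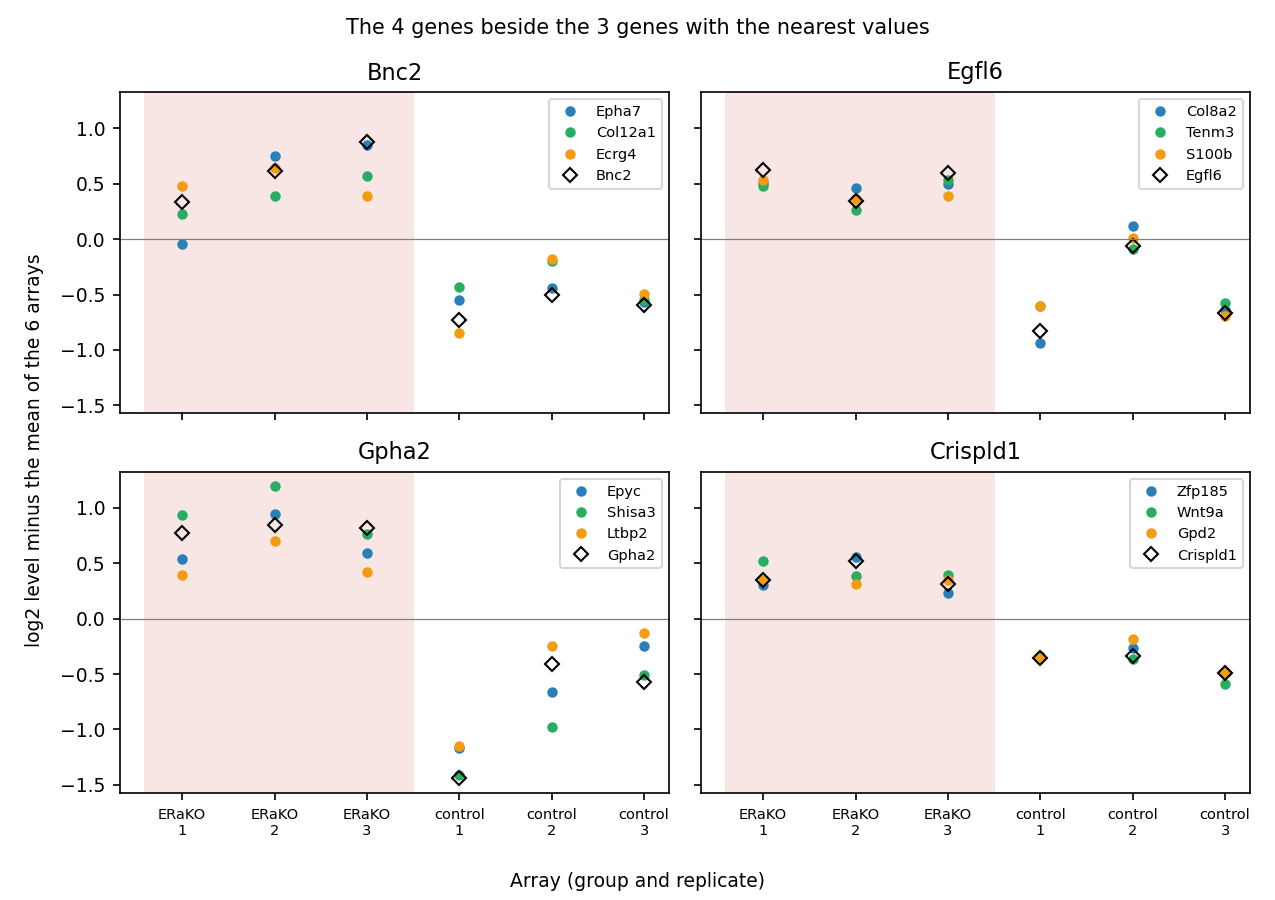
Log2 level minus the mean of the 6 arrays (vertical axis) for each gene (open diamonds) and its 3 nearest genes (coloured points) on the ERaKO arrays (shaded) and the control arrays. Control replicate 2 is highest among controls for Egfl6 and its 3 nearest genes, and control replicate 1 lowest for Gpha2 and its 3 nearest genes.

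Markers of other cells differed between arrays and groups, and their part in the results of the 4 genes was not tested. Osteocyte markers were present, with Dmp1 between 12.41 and 12.69 in ERaKO and between 12.67 and 12.97 in control arrays. All 12 had a probe set, Fgf23 was below the filter, and their summed normalised signal was 17697 to 19212 in ERaKO and 19223 to 21066 in control arrays. These ranges did not overlap. Of 11 tested osteocyte markers 3 lay above 0 and 8 below, with a median of -0.09. In 2 of the 11, Ptprz1 and Dkk1, all ERaKO values lay below all control values, where 7.76% of tested genes did. Chondrocyte markers summed to 4937 to 9329 in ERaKO and 3089 to 5453 in control arrays, and 13 of 14 lay above 0 with a median of 1.33. For 10 of the 14 all ERaKO values lay above all control values, where 9.23% of tested genes did. For 1 of the 14 all lay below, where 7.76% did. The mean centred level of this list was 0.81, 0.92 and 0.05 in ERaKO replicates 1, 2 and 3 and -0.09, -1.11 and -0.59 in control replicates 1, 2 and 3. Meningeal fibroblast markers summed to 3631 to 4038 in ERaKO and 2917 to 4130 in control arrays. Of 12 tested markers 9 lay above 0, and Ptgds, Lama2 and Aldh1a2 lay below. In 5 of the 12, Slc47a1, Cldn11, Crabp2, Zic1 and Foxd1, all ERaKO values lay above all control values, where 9.23% of tested genes did. Pericyte and smooth muscle markers summed to 15401 to 16532 in ERaKO and 17045 to 26509 in control arrays, with 9 of 10 below 0. In 4 of the 10 all ERaKO values lay below all control values, where 7.76% of tested genes did. Skeletal muscle markers summed to 5468, 5302 and 18592 in ERaKO replicates 1, 2 and 3 and to 38415, 309.2 and 37833 in control replicates 1, 2 and 3. Control replicate 2, with the lowest muscle sum, was the control in which Bnc2, Egfl6 and Gpha2 were highest. Of 9 tested macrophage and osteoclast markers 5 lay above 0 and 4 below, with a median of 0.10. In 1 of the 9, Mmp9, all ERaKO values lay above all control values, where 9.23% of tested genes did. Mmp9 differed by 1.55 ± 0.29 (SE, limma adjusted p = 0.203). Macrophage and osteoclast markers summed to 12651, 12986 and 9696 in ERaKO replicates 1, 2 and 3. In control replicates 1, 2 and 3 they summed to 5896, 13974 and 12603, so control replicate 1 stood lowest in these markers. After normalisation Bnc2, Egfl6 and Gpha2 were also lowest among controls in replicate 1, while Crispld1 was lowest in control replicate 3. Suture and periosteal fibroblast markers summed to 16905 to 18380 in ERaKO and 15899 to 20367 in control arrays. Of 11 tested, 6 lay above 0 and 5 below, with a median of 0.03. Endothelial markers summed to 477.3 to 635.4 in ERaKO and 521.4 to 862.5 in control arrays. Of 8 tested, 5 lay above 0 and 3 below, with a median of 0.09. No marker of these 8 lists was at a signal of 0 on any array.

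**Figure D5:**
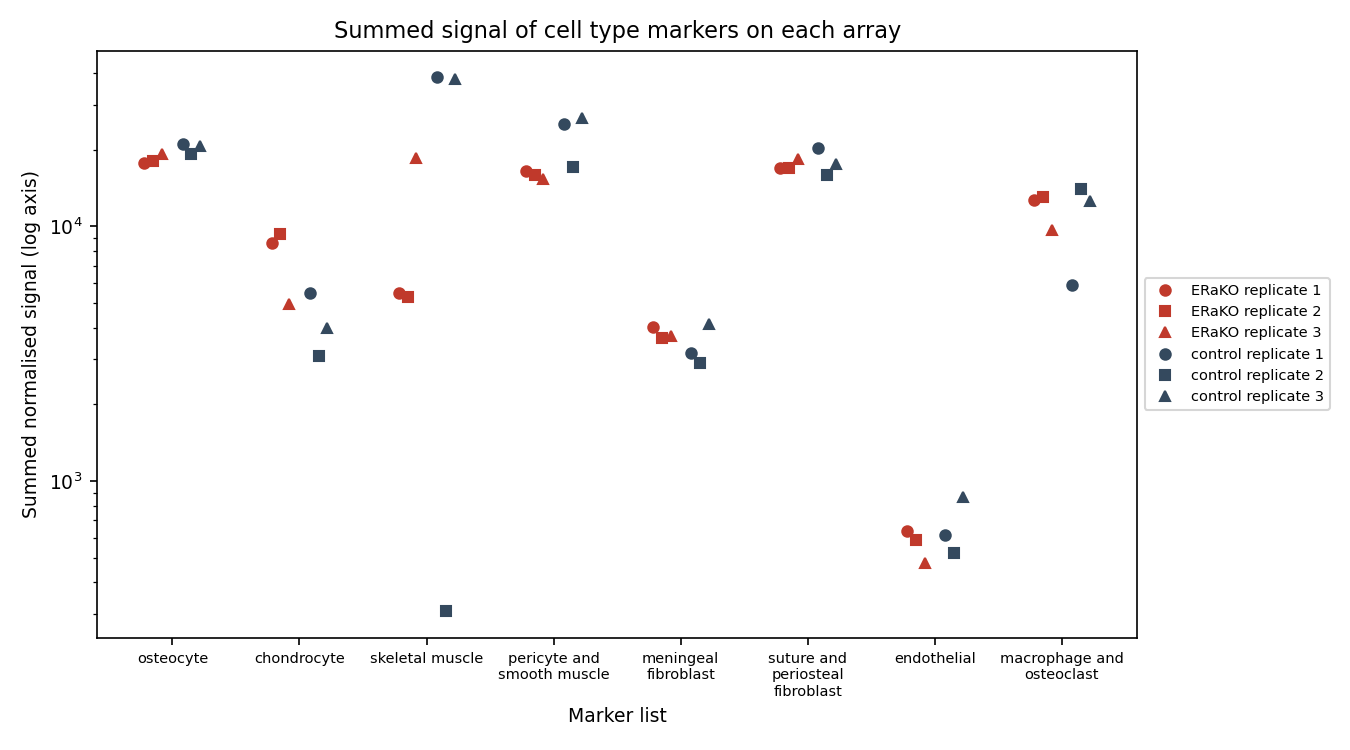
Summed normalised signal (vertical log axis) of the measured genes of 8 cell type marker lists on the 3 ERaKO arrays (red) and 3 control arrays (blue). Skeletal muscle signal is lowest in control replicate 2, at 309.2, and reaches 38415 in control replicate 1, while chondrocyte signal is highest in ERaKO replicates 1 and 2.

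Esr1 itself was read by 3 probe sets that differed. The dimmest had signals of 1.0, 1.0 and 2.5 in ERaKO arrays and of 20.2, 11.6 and 13.3 in control arrays. All its ERaKO values lay below all control values, with a difference of -0.86 ± 0.13 (SE). In the middle one and the brightest the groups overlapped, at -0.13 ± 0.21 and -0.20 ± 0.13 (SE). The labels do not place these probe sets relative to the deletion, so they do not check the labels.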

How the data were processed

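RNA of 6 samples, 3 ERaKO and 3 control, was measured on Affymetrix arrays. The authors deposited 1 intensity per probe set and array on a linear scale, and GCOS, with no version, is the tool named per the submitters' processing notes. Neither the labels nor the file state the background correction, the probe summary or the scaling target. Array medians were between 18.7 and 28.6, and 38.6% to 46.9% of signals on an array were under 16. Precision is limited by the number of arrays.

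From the 45101 deposited intensities per array, 64 control probe sets were left out, and log2(signal + 16) was quantile normalised. The platform annotation, which can be old, gave 1 symbol for 34945 probe sets, several for 932 and none for 9160, and 34741 took the current RefSeq symbol. Each gene was represented by its brightest probe set on average, and the lowest 40% of 18193 genes were left out. Fits used limma 3.58.1 in R 4.3.3 (lmFit, eBayes with trend, 2-sided, Benjamini-Hochberg at 0.05) with no covariate. Standard errors of the 4 genes came from a fit over all 45037 probe sets.

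Named were every probe set of the 4 genes, Esr1, the 3 relatives per list with the smallest p, the closest relative of each gene, and the 3 genes nearest to each, passing over unnamed transcripts. Members and lists were chosen with earlier results of these data known. Simulated data held 10916 genes, with 200 changed in each of 20 runs. On these the fit recovered 33.1% of 1.5-fold, 73.1% of 2-fold and 94.2% of 4-fold changes, with 7.9 false calls per run. The simulated noise was independent between genes, whereas markers of 1 cell type moved together across these arrays. These shares may therefore not hold for the real data. The main fit did not pair samples by replicate number. Alternatives changed scaling, pseudocount, filter, probe set choice, weights, block and the arrays used.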

Additional observations from a re-analysis of the deposited data

How the results depend on the processing

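With the deposited scaling 30 genes were called higher in ERaKO and Crispld1 differed by 0.93. With a pseudocount of 64 the difference was 0.96 for Bnc2 and 0.66 for Crispld1, which the larger added value lowers by construction. The mean of all probe sets of a gene gave 0.64 for Bnc2 and 0.68 for Crispld1, since it holds the dim probe sets of Bnc2. Leaving out 1 array in turn gave 0 to 86 genes called higher, 0 to 212 called lower, and 0 to 3 relatives called higher and 0 to 4 lower. The counts above 0 came without control replicate 2, and the cause was not tested. Over the settings added after seeing the data for the gene lists, 11 to 14 of the 15 craniofacial factors and 2 to 3 of the 8 CAP and LCCL genes lay above 0. The dimmest probe set of Bnc2 ran from -0.06 to 0.19 with 1 array left out. With the replicate number as a block, 0 genes were called in either direction, 820 had an unadjusted p under 0.05 against 1151 without it, and the difference of Bnc2 was 1.22 ± 0.14 (SE). Deviations of same-numbered arrays correlated at -0.38, 0.10 and -0.04 across genes, and those of differently numbered arrays at -0.34 to 0.42. With 3 arrays per group these values cannot decide whether the numbers pair the samples. Dim probe sets limit what can be said of Bnc1, of the hormone receptors and of 2 of the 3 probe sets of Bnc2.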
